A study of Homo sapiens with 16 samples.

Results

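Mitochondrial ribosomal proteins were followed over time in MCF10A cells, taken as the array features whose gene symbol begins with MRPL or MRPS and a number and whose detection p was under 0.05 on 3 or more of 16 arrays. The array held 91 features with such symbols, each a probe or probe group with its own intensity, for 76 symbols among 20589 features for 18190 symbols. Of these, 88 features for 75 symbols were kept, out of 11957 features for 11290 symbols kept in all. The brightest feature of each of the 75 symbols was detected on all 16 arrays, so that none of these genes was kept through a part of the time series alone, and 82 of the 88 features were detected on all 16. The features left out were the single feature of MRPL10, detected on 1 array, and further features of MRPL27 and MRPS12, detected on 1 and 0 arrays. Just inside the limit were further features of MRPL55 and MRPL4, detected on 3 and 4 arrays. Unless stated otherwise, each gene is given by its brightest feature.

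MCF10A is a nontransformed human breast epithelial cell line that was grown in medium with insulin and epidermal growth factor. A small molecule inhibitor of the HER2 kinase, the compound named on the axes of the plots, was added at 1 µM to parallel plates together with fresh medium, and RNA was taken every 3 h up to 45 h for 1 Illumina human Ref8v2 array at each time, while the 0 h plate was untreated. The arrays were placed in 4 consecutive windows of 4 arrays, from 0 to 9 h, 12 to 21 h, 24 to 33 h and 36 to 45 h, and the first window held the untreated array and those at 3, 6 and 9 h with inhibitor. No time had a replicate array, the windows are not replicates of a condition, and no series without inhibitor was analysed here, so that the inhibitor, the medium change and time in culture cannot be told apart. Median intensities of the arrays ranged from 210 to 254, and between 50.1% and 52.9% of the features were detected on each array. Precision is limited by the small number of arrays.

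Markers of the cell line were read first. Of 10 epithelial markers, 7 were detected on 16 arrays, among them the basal keratins KRT5 and KRT17, with a median intensity of 33440 for KRT5, the brightest feature of the list. KRT14, another basal keratin, was detected on 1 array, TP73L, the older symbol of TP63, on 10 arrays, and the brightest feature of LAMB3 combined several probes in a way that left its detection p unusable. Counts over the kept markers below also hold a further feature of KRT14 or LAMB3. The summed intensity of the epithelial markers was 59935 at 0 h, 98896 at 9 h, 75483 at 21 h, 100610 at 24 h, 89266 at 33 h, 104020 at 36 h and 101130 at 45 h. From 0 to 9 h to 36 to 45 h ITGB4, an integrin chain of hemidesmosomes, rose by 1.24 ± 0.13 on the log2 scale (limma, adjusted p = 1.52e-06), with 11.46 at 33 h and 12.51 at 36 h, and KRT6A, a further keratin, fell by 1.10 ± 0.26 (adjusted p = 0.00343). TP73L was at 5.52 to 5.94 from 0 to 9 h and at 7.38 to 7.76 from 36 to 45 h. Of 9 kept epithelial markers, 5 were higher and 1 lower at 36 to 45 h than at 0 to 9 h (against 16.7% and 14.9% of all symbols). The 5 include TP73L. With 10 arrays detected and low values from 0 to 9 h, it may have passed the filter through the later arrays alone. Its call thus carries no weight, and the other counts of this list hold it as well. From 0 and 3 h to 6 and 9 h, 6 rose and 0 fell (against 13.8% and 11.4%). From 24 to 33 h to 36 to 45 h, 4 rose and 1 fell (against 20% and 18.6%). Of 6 fibroblast markers 5 were detected on no array, and of 6 immune and 4 endothelial markers none was detected on all 16 arrays. The endothelial markers KDR and PECAM1 were each detected on 15. The immune marker CD14, detected on 12 arrays, had log2 intensities between 5.55 and 6.03 at 0 to 9 h and between 7.43 and 7.83 at 36 to 45 h, and the endothelial marker PECAM1, detected on 15 arrays, rose by 0.84 ± 0.15 on the log2 scale (adjusted p = 0.000296). The part of these markers in the results was not tested.

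Mitochondria carry their own ribosomes, which translate the few mRNAs of the mitochondrial genome into core subunits of the respiratory chain and of ATP synthase. The ribosomal RNAs come from the mitochondrial genome, but every protein of the small subunit, which decodes the mRNA, and of the large subunit, which joins the amino acids, is encoded in the nucleus, made in the cytosol and imported. Some of these proteins have a counterpart in bacterial ribosomes, and others are found in mitochondrial ribosomes without such a counterpart and are called mitochondria-specific here. Most proteins of the large subunit carry the symbol MRPL and most of those of the small subunit MRPS. MRPS18A and MRPS30 carry the small subunit symbol but lie in the large subunit and were counted there as mitochondria-specific. MRPS18A and MRPS18B were counted as mitochondria-specific although both are relatives of bacterial S18. MRPS36 now carries the symbol KGD4, and it was counted in the small subunit by its symbol on the array, not by a known place in the ribosome.

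Because the genes of these proteins lie apart in the nuclear genome, the promoters of several members that differed in their courses are shown. RefSeq promoter windows (GRCh38.p14, from 250 bases before to 50 bases after the start of the gene) were found for 68 of the 75 genes, 1 of them through its current symbol, and no entry was matched for MRPL2, MRPL13, MRPL15, MRPL21, MRPL23, MRPL35 and MRPS28. Each window of 300 bases was searched on both strands for 4 motifs: the core of the site of NRF1, an activator of nuclear genes for mitochondrial proteins (GCGCANGCG), the core of ETS factor sites such as that of GABP (CCGGAAG), the core of the YY1 site (AAGATGGCG) and the E-box bound by MYC and other factors (CACGTG). A window was counted for each motif that it held, matches of different motifs may overlap, and the NRF1 letters can match both strands at the same place. Given here are the 200 bases before the start, 5′ to 3′ on the strand of the gene, with motif matches in capitals. The line of MRPS27 holds 132 bases and that of MRPL54 holds 41, since bases shared with a neighbouring gene, PTCD2 or LOC105372248, were left out. MRPS25 and MRPL36 are shown for the largest early rises, MRPL45 and MRPS27 for their rise to 36 to 45 h, and MRPL54, MRPL17 and MRPL20 for their fall. These genes were chosen after their values and motif matches were seen, and in a first choice that showed shorter stretches, MRPL12 and MRPS12 stood in the place of MRPL20.
MRPS25, chr3:15065316-15065515, minus strand: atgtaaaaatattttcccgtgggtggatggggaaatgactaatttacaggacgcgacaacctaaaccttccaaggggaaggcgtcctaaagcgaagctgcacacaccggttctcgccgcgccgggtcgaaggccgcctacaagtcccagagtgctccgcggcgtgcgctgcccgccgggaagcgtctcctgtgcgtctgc
MRPL36, chr5:1799838-1800037, minus strand: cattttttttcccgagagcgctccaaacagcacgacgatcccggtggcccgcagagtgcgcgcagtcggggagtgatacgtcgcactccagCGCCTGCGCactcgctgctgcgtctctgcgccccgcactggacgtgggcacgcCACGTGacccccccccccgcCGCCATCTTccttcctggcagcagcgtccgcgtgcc
MRPL45, chr17:38296968-38297167, plus strand: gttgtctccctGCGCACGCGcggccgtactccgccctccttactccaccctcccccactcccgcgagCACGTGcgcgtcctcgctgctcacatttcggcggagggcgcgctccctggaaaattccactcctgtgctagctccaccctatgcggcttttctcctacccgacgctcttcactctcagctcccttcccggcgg
MRPS27, chr5:72320241-72320372, minus strand: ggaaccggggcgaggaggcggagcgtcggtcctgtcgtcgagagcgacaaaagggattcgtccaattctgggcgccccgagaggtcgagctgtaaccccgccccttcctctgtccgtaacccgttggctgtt
MRPL54, chr19:3762641-3762681, plus strand: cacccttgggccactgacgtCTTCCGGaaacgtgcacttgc
MRPL17, chr11:6683341-6683540, minus strand: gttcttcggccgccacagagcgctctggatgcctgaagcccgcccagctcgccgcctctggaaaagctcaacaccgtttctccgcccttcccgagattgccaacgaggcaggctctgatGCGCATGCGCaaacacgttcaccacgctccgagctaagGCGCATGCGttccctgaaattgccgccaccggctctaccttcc
MRPL20, chr1:1407294-1407493, minus strand: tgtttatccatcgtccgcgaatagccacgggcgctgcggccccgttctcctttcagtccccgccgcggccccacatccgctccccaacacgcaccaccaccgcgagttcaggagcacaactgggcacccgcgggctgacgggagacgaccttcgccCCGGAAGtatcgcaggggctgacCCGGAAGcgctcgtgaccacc

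ETS letters were found in 28 of the 68 windows (41.2%), against 10.7% of 27305 RefSeq promoters of the same length. YY1 letters were found in 13 members (19.1%) against 1.85% of all promoters, and NRF1 letters in 12 members (17.6%) against 8.05%. The E-box was found in 7 members (10.3%) against 7.43%, and any of the 4 motifs in 45 members (66.2%) against 23.7%. Base composition was not taken into account in these shares. In the stretches shown, MRPL54 and MRPL20 held ETS letters, MRPL17 held NRF1 letters, MRPL45 held NRF1 and E-box letters, MRPL36 held NRF1, YY1 and E-box letters, and MRPS25 and MRPS27 held none of the 4. A match is a description of the letters only, and binding was not measured.

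The median of the members was lowest at 0 and 3 h and from 36 h and was highest at 21 to 27 h, while single members and classes differed in their courses. This median over the 75 genes of the log2 intensity, taken relative to the mean of each gene over the 16 arrays, was -0.10 at 0 h, -0.14 at 3 h and 0.06 at 9 h, was -0.015 at 12 h, reached 0.14 at 21 h, and was 0.08 at 33 h, -0.19 at 36 h and -0.20 at 45 h. For the 21 mitochondria-specific members of the large subunit it was 0.05 at 0 h, -0.02 at 3 h and -0.11 at 12 h, so that this class was not low at the start. Each array averaged the RNA of all cells on a plate, and fewer cells with a transcript and less of it per cell cannot be told apart in such bulk samples. In limma's F-test of a smooth course (a natural cubic spline, 3 df), where the residuals around the course give the spread, 54 of the 75 genes (72%) varied with time, against 55.6% of all 11290 symbols. All symbols include features detected on as few as 3 arrays, whereas each of the 75 genes was detected on all 16. Among features detected on all 16 arrays, 56 of the 75 genes varied with time, against 65.6% of 8358 symbols. With a straight line in time in place of the spline, 8 genes passed, against 16.6% of all symbols. Calls in every test were made at an adjusted p under 0.05, after Benjamini-Hochberg adjustment over all 11957 features.

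**Figure D1:**
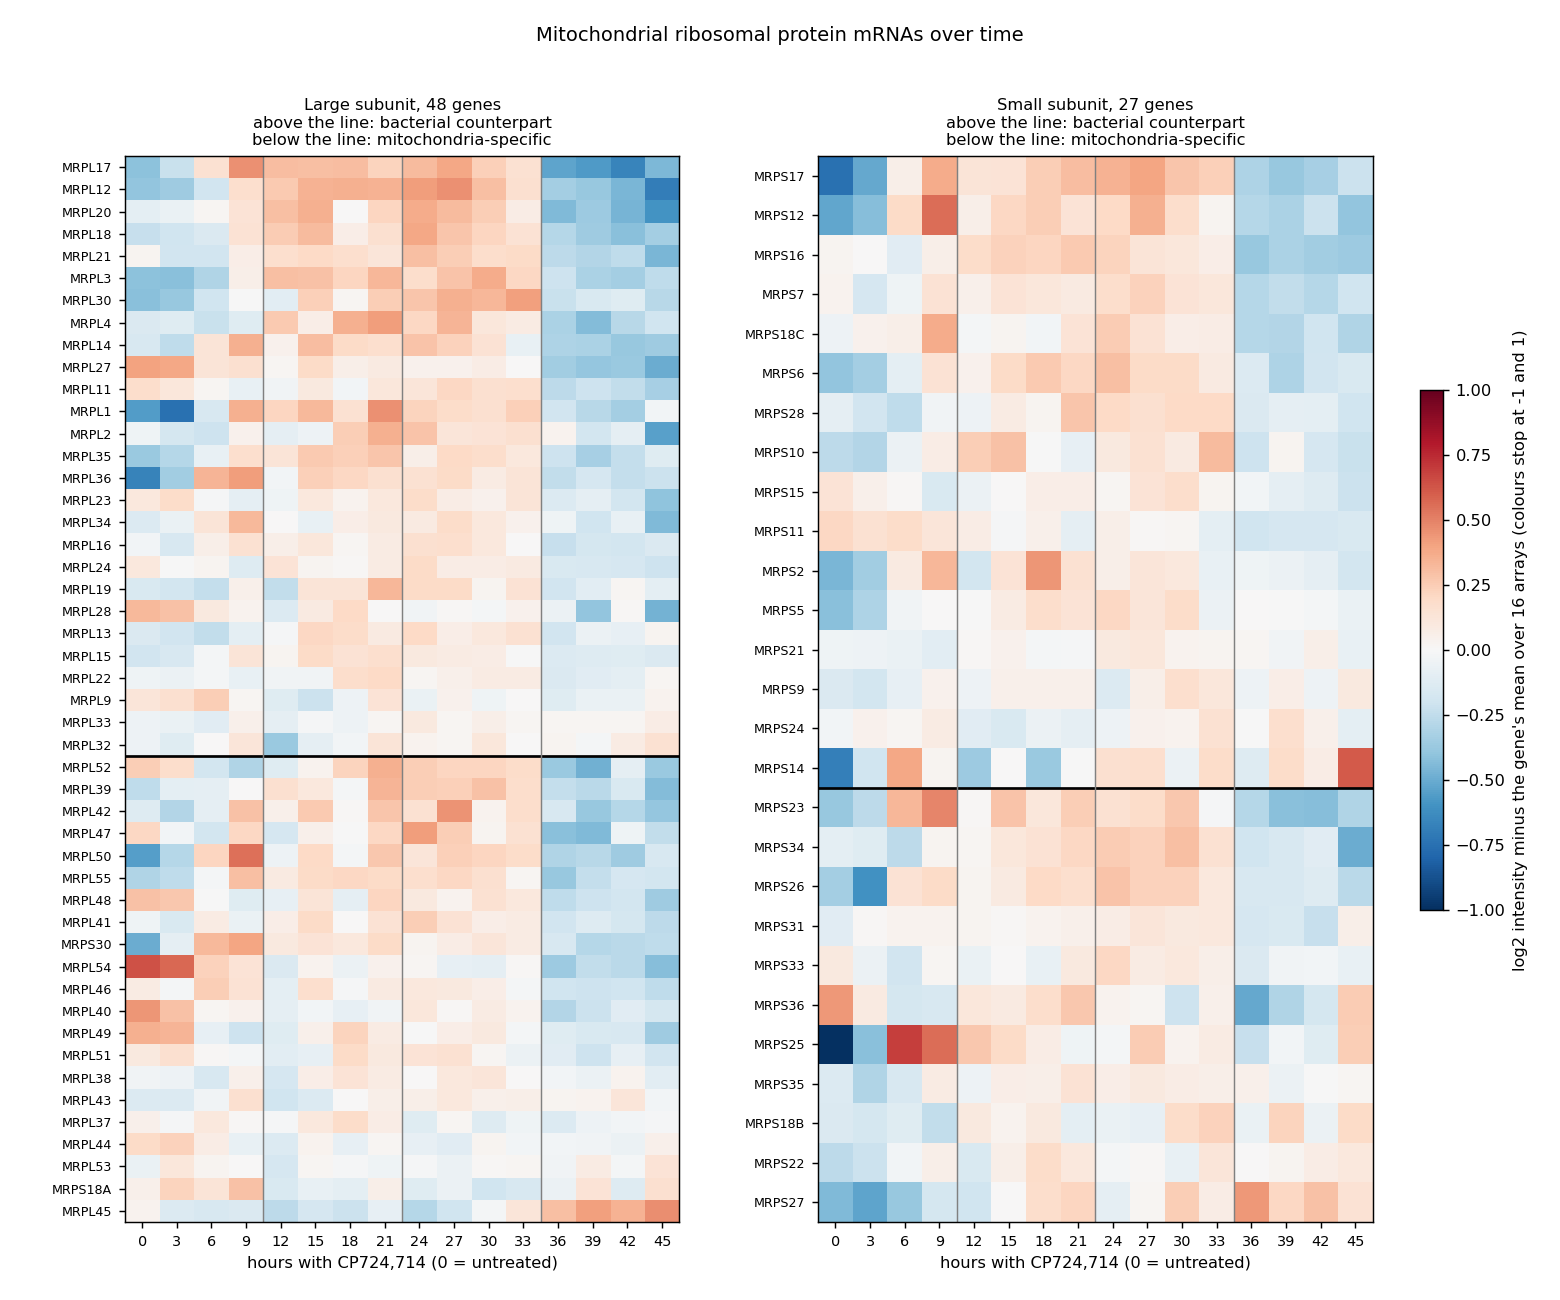
Log2 intensity of each of the 75 genes (lines) on the 16 arrays (columns, hours with the inhibitor), minus the mean of the gene over the arrays, for the large subunit (48 genes) and the small subunit (27 genes), with vertical lines between the 4 windows. Most lines are red in the middle of the series and blue at 36, 39, 42 and 45 h, while MRPL45 and MRPS27, at the bottom of their panels, are red at the end.

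The window with the highest mean was 24 to 33 h for 40 of the 75 genes, 12 to 21 h for 17, 0 to 9 h for 11 and 36 to 45 h for 7, against 16.8%, 24%, 27.1% and 32.2% of all symbols. The lowest mean was in the window of 36 to 45 h for 49 genes, while that window was lowest for 33.5% of all symbols. Among single arrays, the lowest value fell at 45 h for 20 genes, at 0 h for 14 and at 36 h for 9, against 11.9%, 13.1% and 4.13% of all symbols. The highest value fell at 9 h for 12 genes, at 21 h for 11 and at 24 h for 11, against 8.84%, 3.46% and 4.45% of all symbols. By window it lay at 0 to 9 h for 25 genes, 12 to 21 h for 18, 24 to 33 h for 26 and 36 to 45 h for 6, against 39.7%, 21.1%, 13.3% and 25.9% of all symbols. The size of these courses was small for most members. The highest array exceeded the lowest 1.6-fold at the median of the 75 genes, from 1.15-fold to 4.66-fold, compared with 1.87-fold at the median of all symbols, and the widest course belonged to MRPS25. In all, 15 of the 75 genes (20%) passed neither the spline test nor any comparison of windows, against 30.8% of all symbols.

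**Figure D2:**
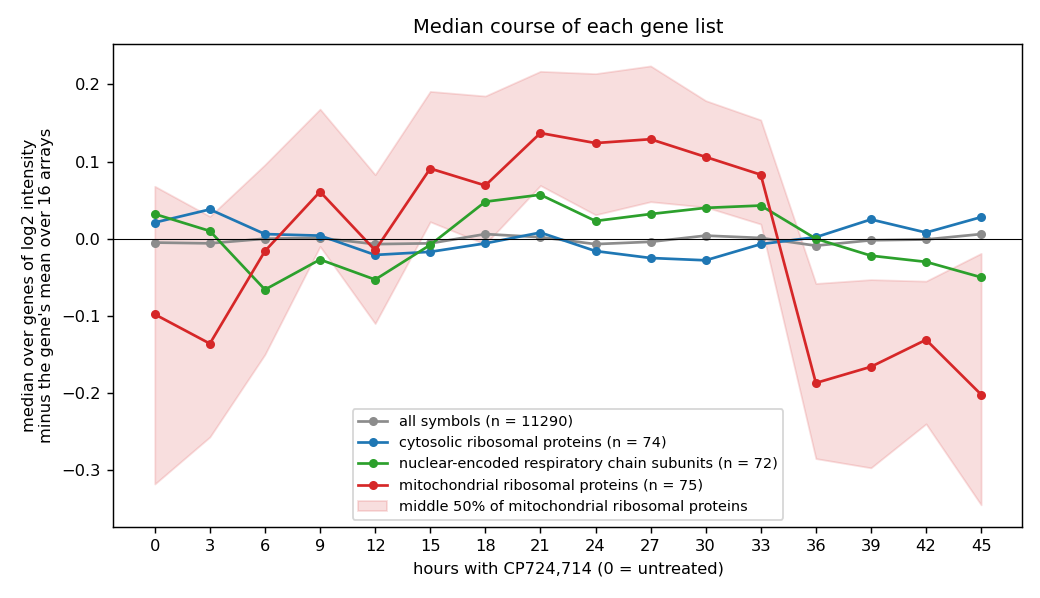
Median over the genes of each list of the log2 intensity minus the mean of the gene over 16 arrays (vertical axis) against hours with the inhibitor, for mitochondrial ribosomal proteins (75 genes, shaded from the lower to the upper quartile), cytosolic ribosomal proteins (74), respiratory chain subunits (72) and all symbols (11290). The median of the mitochondrial ribosomal proteins goes from 0.08 at 33 h to -0.19 at 36 h, while the medians of the other lists stay near 0.

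The first movement came within the first window, in which transcripts of 21 members rose and those of 6 fell from the arrays at 0 and 3 h to those at 6 and 9 h. MRPS25, a mitochondria-specific protein of the small subunit, had a log2 intensity of 7.09 on the untreated array, 8.20 at 3 h, 9.31 at 6 h and 9.18 at 9 h. Its value was lowest of the whole series without inhibitor, and every later array lay between 8.39 and 8.89. From 0 and 3 h to 6 and 9 h MRPS25 rose by 1.60 ± 0.24 on the log2 scale (3.03-fold, limma, adjusted p = 7.18e-05), with both later arrays above both earlier ones. The rise was 1.04 without 0 h and 1.04 without background correction. MRPL36, a small zinc-binding protein of the large subunit with a bacterial counterpart, was at 12.79, 13.11, 13.80 and 13.87 on these 4 arrays. Its rise was 0.89 ± 0.09 (1.85-fold, adjusted p = 1.74e-06), and its later values lay between 13.21 and 13.70. MRPS12, whose bacterial counterpart S12 serves accurate decoding, was at 11.77, 11.86, 12.48 and 12.85, a rise of 0.85 ± 0.11 (1.8-fold, adjusted p = 1.89e-05), whereas the dimmer of its 2 features gave 0.36 with an adjusted p of 0.267.

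The 21 genes that rose were 28% of the 75, against 13.8% of all symbols, and the 6 that fell were 8%, against 11.4%. The median difference was 0.11 over the members and -0.01 over all symbols. MRPS2, whose bacterial counterpart S2 lies on the back of the small subunit, rose by 0.61 ± 0.14 (adjusted p = 0.00374), and MRPL12, which forms part of the stalk of the large subunit and also binds the mitochondrial RNA polymerase, rose by 0.36 ± 0.12 (adjusted p = 0.0345). All of the 6 that fell belonged to the large subunit, and the 3 with the largest change were mitochondria-specific. MRPL49 was at 12.09 and 12.07 at 0 and 3 h and at 11.66 and 11.53 at 6 and 9 h, and fell by 0.49 ± 0.10 (adjusted p = 0.0014). MRPL54 went from 12.92 and 12.86 to 12.52 and 12.42, and fell by 0.42 ± 0.08 (adjusted p = 0.00102). MRPL52 fell by 0.45 ± 0.16 with an adjusted p of 0.0424, which did not hold in 8 of 16 fits that each left out a time, where it reached 0.21 without 9 h, nor with median scaling of the arrays (0.11).

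The early counts rested on few arrays. Without 0 h, 13 genes were higher and 2 lower (against 9.48% and 7.44% of all symbols), and without 9 h, 10 were higher and 3 lower (against 8.17% and 5.95%), and in both fits a lone array is assumed to vary like the other groups. With median scaling in place of quantile normalization 23 genes were higher and 2 lower (against 14.9% and 8.13% of all symbols), and with no normalization between arrays, an alternative chosen after seeing the data, 20 were higher and 2 lower (against 13.4% and 6.61%).

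Compared with 0 to 9 h, 16 genes were higher at 12 to 21 h (21.3%, against 15.5% of all symbols) and 4 were lower (5.33%, against 14.6%), and the median difference was 0.12 over the members and 0.001 over all symbols. Among features detected on all 16 arrays, 17 members were higher and 5 lower, against 18.7% and 18.3% of symbols. MRPL3, a protein of the large subunit that reaches towards the site of peptide bond formation, was at 12.35, 12.34, 12.46 and 12.82 from 0 to 9 h and at 13.06, 13.06, 12.97 and 13.10 from 12 to 21 h. The windows did not overlap, and MRPL3 rose by 0.55 ± 0.09 (1.47-fold, adjusted p = 0.000147). MRPL12 was at 11.37, 11.41, 11.58 and 11.94 in the first window and at 12.03, 12.11, 12.12 and 12.11 in the next. This was again a rise without overlap, by 0.52 ± 0.11 (1.43-fold, adjusted p = 0.00172). MRPL1, whose bacterial counterpart forms the stalk beside the exit site of the tRNA, rose by 0.57 ± 0.16 (1.48-fold, adjusted p = 0.0132), and without 3 h its rise was 0.41 with an adjusted p of 0.053.

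The 4 genes that were lower at 12 to 21 h were MRPL54, MRPL40, MRPS11 and MRPS18A. MRPL54 had values of 12.14, 12.32, 12.23 and 12.33 in that window, each below its 4 earlier values, and differed by -0.42 ± 0.09 (adjusted p = 0.00262). MRPL40, another mitochondria-specific protein of the large subunit, differed by -0.26 ± 0.08 (adjusted p = 0.025) and MRPS11, a protein of the small subunit platform, by -0.16 ± 0.06 (adjusted p = 0.0353). MRPS18A differed by -0.24 ± 0.09, with an adjusted p of 0.0499 that was lost in 12 of 16 fits without a time, at values up to 0.13 without 12 h. The call of MRPL40 was lost without 0 h (adjusted p = 0.078), 3 h (0.077), 12 h (0.059) or 18 h (0.056), and those of MRPL40 and MRPS18A were lost with median scaling (0.59 and 0.57). That of MRPS11 was lost without 0 h (adjusted p = 0.072), 3 h (0.062), 6 h (0.069), 15 h (0.08) or 21 h (0.11), with cyclic loess (0.075) and without a trend in the prior variance (0.085), and its difference was 0.04 with median scaling (adjusted p = 0.75) and -0.02 with no normalization (0.87). MRPL54 was at -0.26 with median scaling (adjusted p = 0.045). The count of lower genes was 2 without 0 h, 1 without 3 h, 2 without 12 h and 2 without 18 h (against 14.8%, 11.4%, 12.1% and 12.6% of all symbols), and the count of higher genes was 29 without 9 h (against 19%). Median scaling gave 39 higher and 1 lower (against 24.1% and 8.58% of all symbols), and no normalization between arrays 25 higher and 1 lower (against 17.7% and 9.79%).

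Between 12 to 21 h and 24 to 33 h the transcripts of the members showed no difference past the threshold. By limma, 0 of the 75 genes were higher and 0 were lower, against 0% and 0.0266% of all symbols, and at an unadjusted p under 0.05, 2 members were higher (2.67%, against 2.51% of all symbols) and 1 was lower (1.33%, against 2.26%). The median difference was 0.03. MRPL17, whose bacterial counterpart L17 lies near the exit of the peptide tunnel, ranged from 13.19 to 13.28 in the earlier of these windows and from 13.12 to 13.35 in the later.

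The largest movement was a fall after 33 h, shared by both subunits. Of the 75 genes, 46 were lower at 36 to 45 h than at 24 to 33 h (61.3%, against 18.6% of all symbols), and 1, MRPL45, was higher (1.33%, against 20%). The median difference was -0.29 over the members, with quartiles of -0.45 and -0.13, and 0.004 over all symbols, and 65 of the 75 differences were below 0. For 52 members every value of 36 to 45 h lay below every value of 24 to 33 h (69.3%, against 22.6% of all symbols), and for 1, again MRPL45, every value lay above (1.33%, against 22.9%).

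Among them, MRPL17 was at 13.28, 13.35, 13.21 and 13.12 from 24 to 33 h and at 12.44, 12.40, 12.30 and 12.52 from 36 to 45 h. All 4 late values were below all 4 earlier ones and also below the untreated array, and MRPL17 fell by 0.82 ± 0.13 (1.77-fold, limma, adjusted p = 6.7e-05). MRPL12 went from 12.18, 12.23, 12.07 and 11.93 to 11.42, 11.38, 11.31 and 11.07. It fell by 0.80 ± 0.11 (1.75-fold, adjusted p = 1.92e-05), and its late values lay near those of 0 and 3 h. MRPL20, whose bacterial counterpart L20 takes part in the early assembly of the large subunit, was at 11.41, 11.36, 11.28 and 11.11 and then at 10.60, 10.67, 10.57 and 10.44. The fall of MRPL20 was 0.72 ± 0.09 (1.65-fold, adjusted p = 9.89e-06), again without overlap. In the small subunit, MRPS16, a protein whose bacterial counterpart S16 helps to assemble the body of the subunit, fell by 0.49 ± 0.06 (adjusted p = 1.3e-05), and MRPS7, which binds the ribosomal RNA in the head, fell by 0.42 ± 0.07 (adjusted p = 8.93e-05). For both, every late value lay below every value of 24 to 33 h.

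Not every member took part. MRPL44, a large subunit protein with a fold like that of RNase III, was at 10.47, 10.44, 10.59 and 10.53 from 24 to 33 h and at 10.53, 10.52, 10.50 and 10.61 from 36 to 45 h. These values overlapped, with a difference of 0.03 ± 0.08 (adjusted p = 0.789). MRPS22, a mitochondria-specific protein of the small subunit, differed by 0.05 ± 0.08 (adjusted p = 0.694), and MRPS2 by -0.15 ± 0.15 (adjusted p = 0.478). MRPL45, which lies at the tunnel exit and holds the ribosome at the inner membrane, moved the other way, from 11.00, 11.08, 11.26 and 11.40 to 11.58, 11.69, 11.63 and 11.74. All 4 late values of MRPL45 exceeded every earlier one, and it rose by 0.48 ± 0.09 (1.39-fold, adjusted p = 0.000264), or by 0.30 with median scaling and 0.28 with no normalization.

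The change of level was seen between the neighbouring arrays at 33 and 36 h. From 33 to 36 h, 67 of the 75 genes had a lower value and 6 a higher one, with a median step of -0.27, while 50.1% of all symbols had a lower value and their median step was -0.001. Among the other steps of 3 h, the members' most one-sided were those from 12 to 15 h, with 62 genes higher, from 9 to 12 h, with 53 lower, and from 6 to 9 h, with 52 higher. With both arrays at the step left out, an alternative chosen after seeing the data, 39 genes were lower at 36 to 45 h (against 16.3% of all symbols), at a median of -0.31. The arrays at 33 and 36 h had median intensities of 238 and 243, detected 10888 and 10889 features, and had negative control levels of 184 and 185 with an SD of 37.3 and 42.6, and the part of these in the step was not tested. With median scaling or with no normalization between arrays 58 genes were lower in this comparison, as were 24.7% of all symbols in either, and 14.8% and 12.6% of all symbols were higher. The median difference of the members was then -0.479 and -0.503, against -0.058 and -0.082 over all features.

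**Figure D3:**
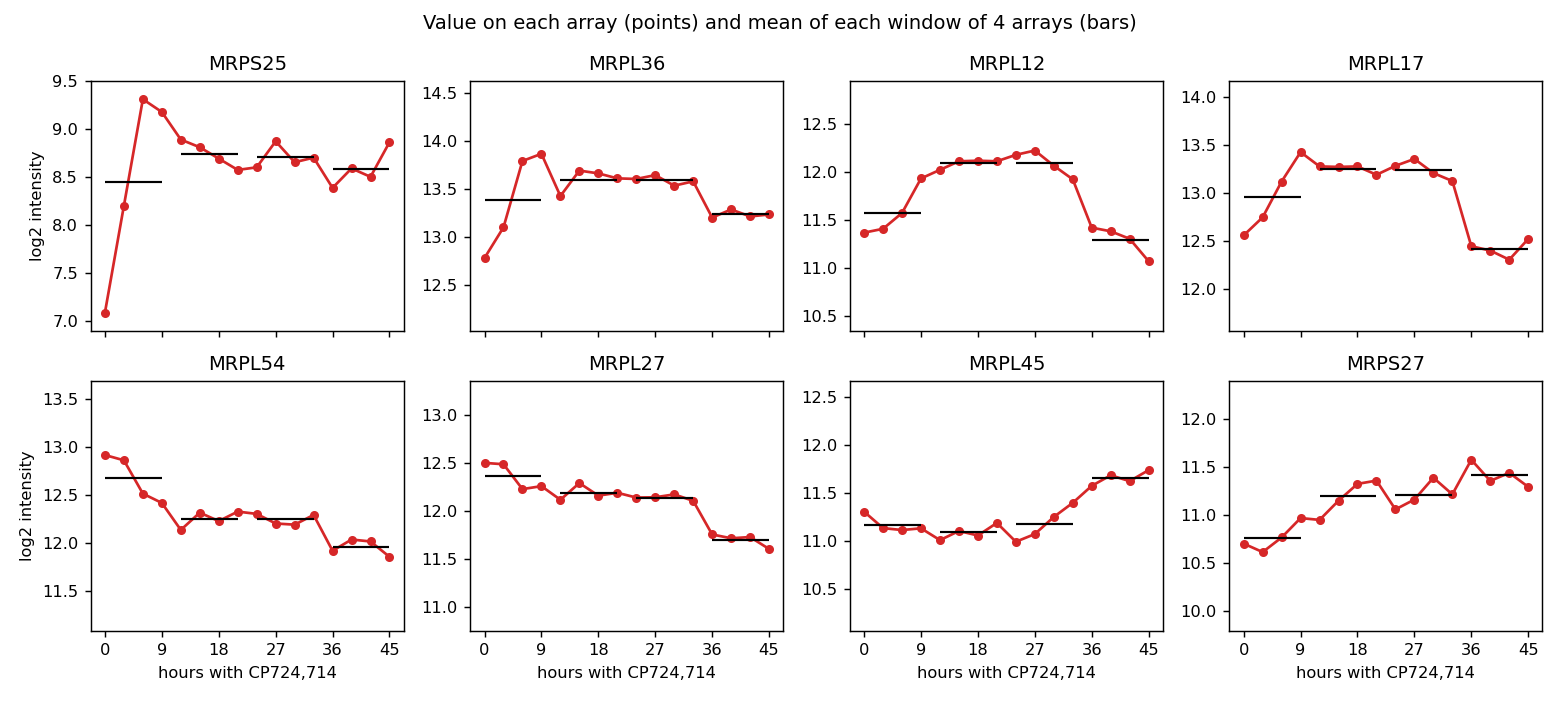
Log2 intensity (vertical axis, the same span in each panel) of 8 genes on each of 16 arrays (points) against hours with the inhibitor, with the mean of each window of 4 arrays as a bar. MRPL12 and MRPL17 drop between 33 and 36 h, MRPS25 and MRPL36 are lowest on the untreated array, MRPL54 and MRPL27 step down both early and late, and MRPL45 and MRPS27 end above their start.

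Compared with the start, the end of the series was lower for some members, and others that fell late were not called against the first window. The lack of a call does not show that they returned to its level. At 36 to 45 h 21 genes were lower than at 0 to 9 h (28%, against 14.9% of all symbols) and 2 were higher (2.67%, against 16.7%), and the median difference was -0.14 over the members and -0.015 over all symbols, with 53 of 75 below 0. For 19 members every late value lay below every value of 0 to 9 h (25.3%, against 12.1% of all symbols), and for 3 every late value lay above (4%, against 14%). Those 3 were MRPL45, MRPS27 and MRPS18B, of which MRPS18B, named here after its values were seen, did not pass the test. This comparison shares its late arrays with that against 24 to 33 h and its early arrays with those of 12 to 21 h and of 6 and 9 h.

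In the large subunit MRPL54 was lowest relative to its start, at 11.92, 12.04, 12.02 and 11.86 from 36 to 45 h against 12.92, 12.86, 12.52 and 12.42 from 0 to 9 h. MRPL54 fell by 0.72 ± 0.09 (1.65-fold, adjusted p = 2.11e-05), and its windows did not overlap. MRPL27, whose bacterial counterpart L27 lies next to the peptidyl transferase centre, was at 12.50, 12.49, 12.23 and 12.26 and ended at 11.76, 11.71, 11.73 and 11.60. It fell by 0.67 ± 0.07 (1.59-fold, adjusted p = 2.02e-06), also without overlap. MRPL17 fell by 0.54 ± 0.13 (adjusted p = 0.00335) and MRPL20 by 0.46 ± 0.09 (adjusted p = 0.000851). In the small subunit, MRPS18C, a relative of bacterial S18, fell by 0.38 ± 0.08 (adjusted p = 0.00135), MRPS16 by 0.35 ± 0.06 (adjusted p = 0.000447) and MRPS11 by 0.34 ± 0.06 (adjusted p = 0.00016). MRPS23, mitochondria-specific, differed by -0.40 ± 0.15 with an adjusted p of 0.0488, but its value at 0 h, 10.04, lay among those of 36 to 45 h, 10.14, 10.01, 10.00 and 10.12, and that at 3 h, 10.16, lay next above them. That call was lost in 14 of the 16 fits without a time, with an adjusted p of 0.15 without 6 h and 0.15 without 9 h, and with median scaling (0.27), as was that of MRPS16 with median scaling (0.055).

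MRPS27, a small subunit protein with pentatricopeptide repeats, was the other gene that was higher at the end. It was at 10.70, 10.61, 10.76 and 10.96 from 0 to 9 h and at 11.57, 11.35, 11.44 and 11.29 from 36 to 45 h. MRPS27 rose by 0.65 ± 0.10 (1.57-fold, adjusted p = 0.000131), and part of this was reached at 12 to 21 h, where it was above the first window by 0.43 ± 0.10 (adjusted p = 0.00448). MRPL45 rose by 0.48 ± 0.09 (1.4-fold, adjusted p = 0.000324). The split between lower and higher genes depended on the fit and on the scaling. With the arrays of 0 to 9 h and 36 to 45 h alone in the fit, 2 genes were higher and 12 lower (against 11.7% and 9.18% of all symbols). A fit of 5 groups, which parted 0 and 3 h from 6 and 9 h, gave 3 higher and 30 lower (against 21% and 19.5%). Median scaling gave 9 higher and 9 lower (against 24.2% and 8.33% of all symbols) with a median of -0.002, no normalization 2 higher and 13 lower (against 15.6% and 12.1%), and the fit without 9 h gave 4 higher genes (against 17.2%). Between the ends of the series, 0 and 3 h against 42 and 45 h, 9 genes were lower and 2 higher (against 6.55% and 8.17% of all symbols), with a median of -0.04 and an adjusted p of 0.21 for MRPL17, 0.13 for MRPS18C, 0.072 for MRPS16 and 0.87 for MRPS23.

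**Figure D4:**
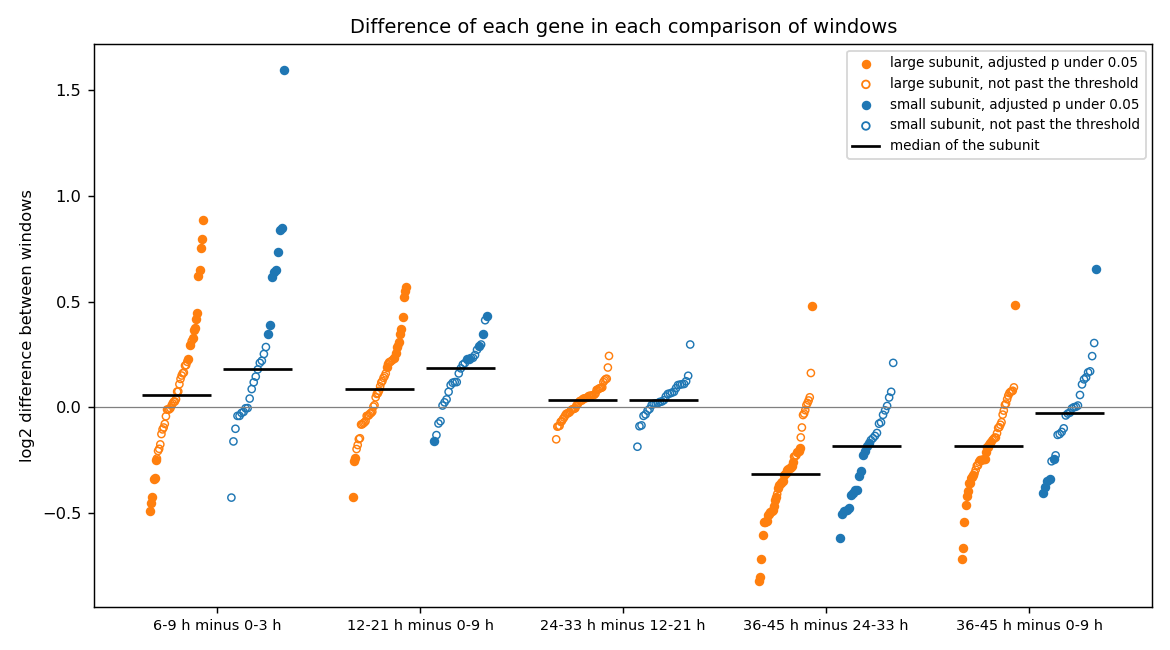
Log2 difference of each of the 75 genes (points, ordered by size) in each of 5 comparisons of windows, for the large and the small subunit, filled where limma's adjusted p was under 0.05, with the median of the subunit as a bar. The points of 24 to 33 h against 12 to 21 h are all open, and those of 36 to 45 h against 24 to 33 h lie mostly below 0, with medians of -0.315 and -0.185.

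Seen by pattern, 13 members were higher at 12 to 21 h than in the first window and lower at 36 to 45 h than at 24 to 33 h (17.3%, against 8.38% of all symbols), among them MRPL3, MRPL12 and MRPS16. A further 3 (4%, against 0.709%) were lower in both comparisons, MRPL54, MRPL40 and MRPS11, of which MRPL54 alone was called lower at 12 to 21 h with median scaling or with no normalization. Of the 46 that fell late, 20 were also called lower than in the first window (26.7% of the members, against 8.34% of all symbols) and 26 were not called against it (34.7%, against 9.93%). The early and the late comparison shared no array. Of the 21 genes that rose from 0 and 3 h to 6 and 9 h, 14 fell late (66.7% of the early rises and 30.4% of the late falls), compared with 34.4% and 25.5% for all symbols. Of the 6 that fell early, 5 fell late as well (83.3%, against 9.07% of all symbols), and of the 48 with no early call 27 fell late (56.2%, against 17.1%). Members that rose early and those that did not were thus both found among the late falls. Across the 75 genes, which share the arrays and are not independent replicates, the early and the late difference had a Pearson correlation of -0.198 and a Spearman correlation of -0.229, and across all symbols -0.361 and -0.331.

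**Figure D5:**
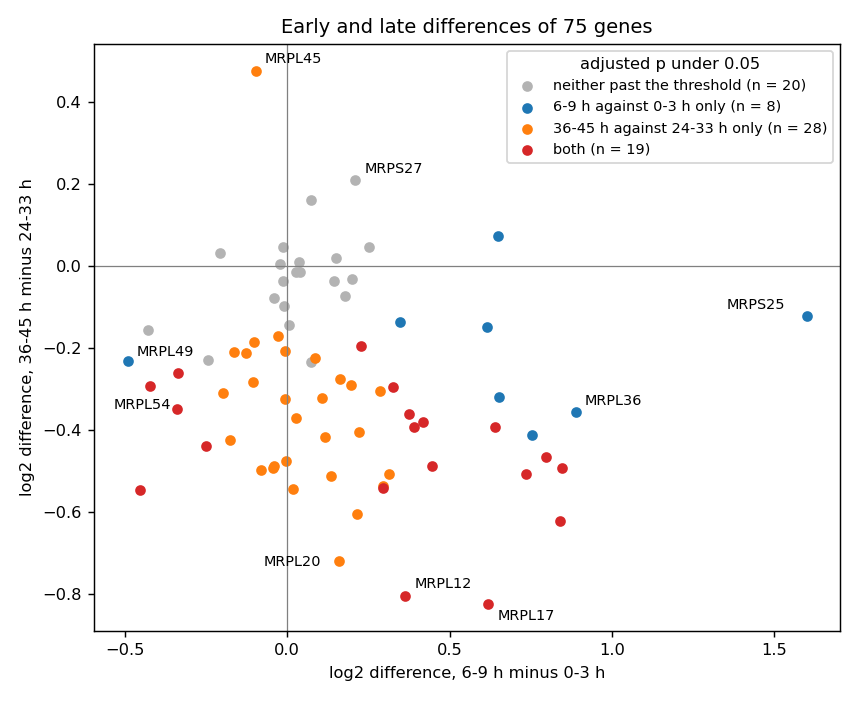
Log2 difference from 24 to 33 h to 36 to 45 h (vertical axis) against that from 0 and 3 h to 6 and 9 h (horizontal axis) for 75 genes (points), coloured by the comparison in which limma's adjusted p was under 0.05. Of the 75, 19 passed in both, 28 late alone, 8 early alone and 20 in neither, and most points lie below 0 on the vertical axis at either sign of the early difference.

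Both subunits took part in the late fall. Of 48 genes of the large subunit 31 fell (64.6%) with a median difference of -0.315, and of 27 genes of the small subunit 15 fell (55.6%) with a median of -0.185, against 18.6% of all symbols. Compared with 0 to 9 h, 16 genes of the large subunit ended lower (33.3%) at a median of -0.18, and 5 of the small subunit ended lower (18.5%) at a median of -0.03, against 14.9% of all symbols, to which the share of the small subunit was close. From 0 and 3 h to 6 and 9 h, 12 genes of the large subunit rose (25%) and 6 fell (12.5%), and in the small subunit 9 rose (33.3%) and 0 fell, against 13.8% and 11.4% of all symbols. Members with a bacterial counterpart and mitochondria-specific members were both found among the genes that fell late, 29 of 43 (67.4%, median -0.32) and 17 of 32 (53.1%, median -0.23). At 12 to 21 h, 14 of the 43 with a bacterial counterpart were higher than in the first window (32.6%) and 1 was lower (2.33%), with a median of 0.21, and of the 32 mitochondria-specific members 2 were higher (6.25%) and 3 lower (9.38%), with a median of 0.09, against 15.5% and 14.6% of all symbols. By subunit these medians were 0.21 in the large and 0.16 in the small subunit for members with a counterpart, and -0.03 and 0.18 for mitochondria-specific members, of which all 11 of the small subunit lay above 0. Whether these classes differed was not tested.

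The promoter letters were read against the late fall. Of 39 members that fell late and had a window, 20 held ETS letters (51.3%), like MRPL54 and MRPL20 among the sequences shown, and of 29 that did not fall late 8 did (27.6%). YY1 letters were found in 5 of the 39 (12.8%) and 8 of the 29 (27.6%), NRF1 letters in 6 (15.4%) and 6 (20.7%), and the E-box in 1 (2.56%) and 6 (20.7%). Of the 19 members with a window that rose early, 4 held ETS letters (21.1%), and of the other 49, 24 did (49%). YY1 letters were found in 3 of the 19 (15.8%) and 10 of the 49 (20.4%), NRF1 letters in 3 (15.8%) and 9 (18.4%), and the E-box in 1 (5.26%) and 6 (12.2%). These shares are a description and were not tested.

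Of the 75 symbols, 12 had more than 1 kept feature, and from 0 to 9 h to 36 to 45 h the features of MRPL43 and MRPL55 differed in direction. From 0 to 9 h to 12 to 21 h the features of MRPL11, MRPL21, MRPL22, MRPL39, MRPL43 and MRPS21 did. MRPL11 was at -0.02 (adjusted p = 0.845) in the brighter and at a rise of 0.60 (adjusted p = 0.00138) in the dimmer. MRPL21 was at a rise of 0.23 (adjusted p = 0.0116) and at -0.09 (adjusted p = 0.618). The brighter feature of MRPL39 rose by 0.26 (adjusted p = 0.0229). Its dimmer feature was detected on 2 arrays of 0 to 9 h and 1 of 12 to 21 h, so that its direction is uncertain and no size is given. The brightest feature of MRPL43, a mitochondria-specific protein of the large subunit, lay between 11.34 and 11.70 on all arrays and passed no comparison. A dim feature of MRPL43 was detected on 3 arrays of 0 to 9 h, on none of 12 to 33 h and on all 4 of 36 to 45 h. It passed the detection filter only through the windows in which it was high, so that no test of it is given. The further feature of MRPL55, detected on 3 arrays, stayed between 5.76 and 6.29 and passed no comparison, while its brightest feature fell late by 0.38 (adjusted p = 0.00989). For MRPL11 the late fall was 0.42 in the brighter feature (adjusted p = 6.43e-05) and 1.14 in the dimmer (adjusted p = 1.67e-06), and for MRPS12 0.49 (adjusted p = 0.0248) and 1.19 (adjusted p = 3.86e-05). The features of MRPS21 differed in the early comparison, with -0.04 (adjusted p = 0.673) in the brighter and a rise of 0.71 (adjusted p = 0.00146) in the dimmer, and from 24 to 33 h to 36 to 45 h they were at -0.08 (adjusted p = 0.155) and 0.39 (adjusted p = 0.0665), where every late value of the dimmer lay above its values of 24 to 33 h. The kept features of MRPL4 (4 arrays), MRPL27 and MRPL39 (9 arrays each) and the third of MRPL43 (8 arrays) that were detected on fewer than 16 arrays passed neither the comparison of 12 to 21 h with 0 to 9 h nor that of 36 to 45 h with 24 to 33 h. Of these, the feature of MRPL27 passed as lower at 36 to 45 h than at 0 to 9 h. It was detected on 4 arrays of 0 to 9 h and on 1 of 36 to 45 h, so that no size is given.

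Proteins of the mitochondrial ribosome whose symbols do not begin with MRP mostly fell late as well. Of 5 such genes, 4 fell from 24 to 33 h to 36 to 45 h and 0 rose, against 18.6% and 20% of all symbols, with a median of -0.45. AURKAIP1, a small subunit protein, went from 10.04, 10.00, 10.02 and 9.74 to 9.18, 9.65, 9.43 and 9.50, and fell by 0.51 ± 0.11 (adjusted p = 0.00119). ICT1, a peptidyl-tRNA hydrolase built into the large subunit, fell by 0.46 ± 0.08 (adjusted p = 0.000322), GADD45GIP1 by 0.45 ± 0.12 (adjusted p = 0.00513) and CHCHD1 by 0.39 ± 0.10 (adjusted p = 0.00364). DAP3, a GTP-binding protein of the small subunit, differed by -0.14 ± 0.10 (adjusted p = 0.299).

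Cytosolic ribosomal proteins and respiratory chain subunits encoded in the nucleus, the lists nearest in function, were set beside the members. Of 74 cytosolic ribosomal proteins, 8 were lower (10.8%) and 17 higher (23%) at 36 to 45 h than at 24 to 33 h, with a median of 0.02, and from 0 and 3 h to 6 and 9 h 0 rose and 3 fell, against 18.6% and 20% of all symbols late and 13.8% and 11.4% early. Single genes of that list fell by more than the brightest feature of any member, such as RPS26, by 1.49 ± 0.15 (adjusted p = 1.23e-06), RPL29, by 0.97 ± 0.10 (adjusted p = 1.67e-06), and RPS15, by 0.91 ± 0.15 (adjusted p = 0.000128). Of 72 respiratory chain subunits, 18 were lower (25%) and 6 higher (8.33%) late, with a median of -0.07, among them NDUFB1 of complex I, which fell by 0.66 ± 0.12 (adjusted p = 0.000393). UQCRC2, a core protein of complex III, rose by 0.66 ± 0.09 from 0 to 9 h to 36 to 45 h (adjusted p = 2.8e-05), and UQCR, the older symbol of UQCR11, fell by 0.54 ± 0.20 (adjusted p = 0.046). The difference between these lists and the members was not tested as such.

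Genes that act with the mitochondrial ribosome moved in several directions. Of 14 translation factors, 6 fell (42.9%) and 4 rose (28.6%) late, against 18.6% and 20% of all symbols. Relative to 0 to 9 h LRPPRC, which stabilizes mitochondrial mRNAs, ended higher by 0.80 ± 0.10 (adjusted p = 1.58e-05), MTIF3, an initiation factor, higher by 0.39 ± 0.08 (adjusted p = 0.00119), and MTRF1L, a release factor detected on 13 arrays, differed by -0.51 ± 0.17 (adjusted p = 0.0283). Of 17 assembly and RNA modification factors, 6 fell (35.3%) and 2 rose (11.8%) late. C4orf14, the older symbol of the assembly GTPase NOA1, went from 11.21, 11.29, 11.35 and 11.55 at 24 to 33 h to 12.16, 12.24, 12.27 and 12.36 at 36 to 45 h, a rise of 0.91 ± 0.08 (1.87-fold, adjusted p = 2.95e-07), opposite to most ribosomal proteins. MTG1, another GTPase of assembly, fell from the first to the last window by 0.45 ± 0.12 (adjusted p = 0.00886), and NGRN, which binds the large ribosomal RNA, fell by 0.43 ± 0.07 (adjusted p = 9.47e-05).

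Of 10 genes of mitochondrial DNA transcription and replication, 6 rose (60%) and 1 fell (10%) from 0 and 3 h to 6 and 9 h, against 13.8% and 11.4% of all symbols, and 4 fell (40%) and 0 rose late, against 18.6% and 20%. TFAM, which packages and transcribes the mitochondrial genome, was at 10.98 on both arrays of 0 and 3 h and at 11.23 and 11.54 at 6 and 9 h, rose by 0.40 ± 0.10 (adjusted p = 0.00552), and fell late by 0.67 ± 0.10 (adjusted p = 4.96e-05). PEO1, the older symbol of the helicase TWNK, rose early by 1.36 ± 0.17 (adjusted p = 1.08e-05), POLRMT, the mitochondrial RNA polymerase, by 0.85 ± 0.15 (adjusted p = 0.000451), and SSBP1, which binds single-stranded DNA, fell late by 0.51 ± 0.05 (adjusted p = 9.73e-07). Of 11 regulators of mitochondrial biogenesis, 5 rose (45.5%) and 1 fell (9.09%) early, and 4 fell (36.4%) and 1 rose (9.09%) late. MYC was at 11.14 on the untreated array, 12.19 at 3 h, 12.67 at 6 h and 12.46 at 9 h, and rose early by 0.90 ± 0.20 (adjusted p = 0.00221), but differed late by -0.04 ± 0.21 (adjusted p = 0.9). PPRC1, a coactivator of NRF1, rose early by 0.99 ± 0.20 (adjusted p = 0.00105) and fell late by 0.59 ± 0.22 (adjusted p = 0.0452). GABPB2, a symbol once also used for GABPB1, differed late by -0.98 ± 0.28 (adjusted p = 0.0107) and HCFC1, a transcriptional cofactor, fell late by 0.48 ± 0.08 (adjusted p = 0.000215). NRF1 itself was detected on 9 arrays and passed no comparison, and PPARGC1A was detected on 6 arrays, with 8.33 on the untreated array as its highest value.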

How the data were processed

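The authors deposited the bead intensity of each feature on a linear scale, not normalized between arrays, for 16 Illumina human Ref8v2 arrays of MCF10A cells. The authors deposited with each intensity a detection p-value, taken against negative control beads on that array. Quality control and quantile normalization are stated in the study's methods, and the deposited values do not carry the latter. No background correction or summary software is named. All 16 columns were mapped to their times by their labels, 0 were left over, and 0 pairs of arrays held identical values.

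Detection p-values of 19092 of the 20589 features were multiples of 1 in 708 (708 times p lay within 0.001 of a whole number), and 1497 features were combined from several probes. None of the combined features was a member. The level of the negative controls, 166 to 199 with an SD of 35.4 to 44.0, was inferred from the former. In limma 3.58.1 (R 4.3.3), normexp correction with an offset of 16 was followed by quantile normalization and log2 transformation, which compresses the differences of dim features. Features detected on fewer than 3 arrays were left out. This filter also read the detection p of combined features, which was unusable for the brightest feature of LAMB3. Shares of all symbols may therefore leave out bright combined features. Time was tested by a natural cubic spline (3 df, 12 residual df), windows by contrasts in a fit of 4 windows (12 residual df), and 6 and 9 h against 0 and 3 h in a fit of 5 groups (11 residual df), the prior variance following intensity. Errors given with ± are moderated standard errors from limma. Adjusted p-values are Benjamini-Hochberg values over 11957 features, called under 0.05. Shares of all symbols are over the brightest feature of 11290 symbols. The tests were run on simulated series with independent noise and an added log2 change of 1, larger than the median differences of the members. That run does not speak to smaller changes or to neighbouring arrays that are related. Figures were drawn with matplotlib 3.10.9 in Python 3.11.15.

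The members and the gene lists were chosen with earlier results of these data known. Genes were named by a rule: in each subunit the 4 largest increases and decreases from 0 to 9 h to 36 to 45 h among genes past that comparison and the spline test, the 3 largest changes in each direction of the other comparisons, members with features that differed in direction or were detected on fewer than 16 arrays, MRPL12, MRPS12, MRPL3, MRPS2, MRPS7, MRPS16, MRPS22 and MRPL44 for their known roles, the 3 largest changes at 36 to 45 h against 0 to 9 h in each further list, and MYC, NRF1, PPRC1, TFAM and POLRMT. Named beyond it, after their values were seen, were MRPL11, MRPL21, MRPL22, MRPS21, MRPS18B, CHCHD1, GADD45GIP1, ICT1, DAP3, PEO1 and PPARGC1A, and of the markers KRT5, KRT17, KRT14, LAMB3 and KDR. The alternatives were an offset of 50, intensities without background correction, cyclic loess, median scaling, no normalization, features detected on 1 or more or on all 16 arrays, no trend in the prior variance, a spline with 5 df, a straight line, other groupings of the times, the dimmest feature or all kept features of a symbol, and leaving out each time.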

Additional observations from a re-analysis of the deposited data

How the results depend on the processing

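The late fall held in every alternative run, with 39 to 49 genes lower at 36 to 45 h than at 24 to 33 h when each time was left out in turn (15.8% to 20.7% of all symbols), and 49 to 56 genes varied with time by the spline (50.8% to 55.5%). Median scaling gave 9 higher and 9 lower genes at 36 to 45 h against 0 to 9 h with a median of -0.002, 39 higher and 1 lower at 12 to 21 h, 2 lower at 6 and 9 h, and a median of -0.479 at 36 to 45 h against 24 to 33 h. No normalization between arrays, chosen after seeing the data, gave in the same order 13 lower, 25 higher and 1 lower, 2 lower, and -0.503. With features detected on all 16 arrays, 48 genes were lower and 1 higher at 36 to 45 h than at 24 to 33 h. The shares of symbols were 23.2% and 23.7%. In that setting 22 genes were higher and 6 lower at 6 and 9 h (17% and 14.1% of symbols). Against 0 to 9 h, 23 ended lower and 2 higher (18.8% and 19.1%). At 36 to 45 h against 24 to 33 h, 2 genes were higher with features detected on 1 or more arrays. That filter admitted MRPL10, whose single feature was detected on 1 array. No such count is given for the dimmest feature of each symbol or for all kept features, the latter chosen after seeing the data. Both settings hold the dim MRPL43 feature that passed the detection filter only through the windows in which it was high. A straight line in time called 8 genes, against 16.6% of all symbols. Between 0 and 3 h and 42 and 45 h, 9 genes were lower with a median of -0.041. With the arrays of 0 to 9 h and 36 to 45 h alone in the fit, 12 genes were lower at 36 to 45 h than at 0 to 9 h, against 9.18% of all symbols. In the fit of 5 groups, 30 were lower and 3 higher in this comparison, against 19.5% and 21% of all symbols.

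When each time was left out in turn, 11 to 29 genes were higher and 1 to 6 lower at 12 to 21 h (of all symbols, 11.9% to 19% and 11.4% to 17.6%), 10 to 22 were higher and 2 to 6 lower at 6 and 9 h (8.17% to 14.3% and 5.95% to 12%), and 2 to 4 were higher and 16 to 27 lower at 36 to 45 h against 0 to 9 h (14.1% to 18.9% and 12.3% to 17.7%). Of 26 results for named genes, 17 kept their direction and call in every setting run, 58 of 694 alternative values lost the call and 0 changed direction. Outside these, the 12 to 21 h difference of MRPS11 changed from -0.160 to 0.036 with median scaling. The cause of these differences was not tested. The median of all features moved with median scaling from -0.021 to 0.067 at 36 to 45 h against 0 to 9 h, and from -0.001 to 0.087 at 12 to 21 h. No paired analysis was possible because each time has 1 array, and a chip as a block was not run because no chip is named.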
